A study of Mus musculus with 4 samples.

Results

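The genes described here are 10 markers of trophoblast, the lineage of the blastocyst wall that forms the placenta. They comprise the transcription factors *Cdx2*, *Gata3*, *Elf5*, *Tfap2a*, *Tfap2c*, *Hand1* and *Dlx3* and the simple-epithelium keratins *Krt8*, *Krt18* and *Krt19*. They were chosen by symbol, and 9 of the 10 had a row among the 19645 features of the tables, of which 17710 carry a symbol. *Elf5* had none. RNA of undifferentiated mouse embryonic stem cells (ESCs), grown on gelatin in serum with the cytokine LIF, was sequenced after removal of ribosomal RNA. There were 2 libraries of wild-type (WT) cells and 2 libraries of *Bmal1* KO cells, in which CRISPR-Cas9 cut the gene *Arntl* that encodes the clock factor BMAL1. The KO cells are 1 clone, so genotype and clone cannot be told apart. The authors call the libraries biological duplicates, but the labels do not name separate cultures. The p-values measure only the spread between these libraries. Values are FPKM (fragments scaled to transcript length and to all mapped fragments), which can be compared between genes because they are per length.

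In the blastocyst, TEAD4 with its cofactor YAP switches on *Cdx2* and *Gata3* in outer cells, and these factors set up the trophectoderm. *Elf5*, *Eomes* and *Tfap2c* then hold trophoblast stem cells in their state, whereas *Hand1* and *Dlx3* act in giant cells and in the labyrinth of the placenta. Keratins form filaments as pairs of a type I and a type II protein, and KRT8 with KRT18 or KRT19 is the pair of simple epithelia, first made in the trophectoderm. ESCs derive from the inner cell mass, and they keep trophoblast genes off through POU5F1 and DNA methylation. The question put to the data was what these markers did beside *Tead4*, which was higher in the KO cells.

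*Tead4*, which is not a member, had 4.75 and 4.08 FPKM in WT replicates 1 and 2 and 11.4 and 10.5 FPKM in KO replicates 1 and 2. The KO libraries lay far above the WT libraries, 2.48-fold by their means. The limma estimate of the log2 fold change was 1.29 with a standard error (SE) of 0.12 (adjusted p = 0.00480). Among the 10 markers, *Tfap2c* and *Krt19* rose, and neither *Krt8*, *Krt18* nor *Tfap2a* passed the test. *Cdx2*, *Gata3*, *Hand1* and *Dlx3* stayed under 0.5 FPKM in each library. In these bulk libraries fewer cells of a type and less RNA per cell cannot be told apart. The minimum for testing was a mean of 0.5 FPKM over the 4 libraries, which 5 members passed and 4 did not. Calls required a Benjamini-Hochberg adjusted p under 0.05 and a change of more than 2-fold, which took in 4.14% of the 12990 tested features (2.72% higher and 1.42% lower in KO). Whatever their size of change, 12.5% of features had an adjusted p under 0.05. Of the members, 1 was called (*Krt19*) and 2 had an adjusted p under 0.05. The libraries of the genotypes did not overlap for 3 of the 5 tested members, against 58.8% of tested features. *Krt19* passed the minimum only through its KO libraries, so these counts are a description of the list. With 2 libraries a group, an exact permutation test of a single gene cannot give a p below 0.333, so each p rests on the variance that limma shares across features.

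**Figure D1:**
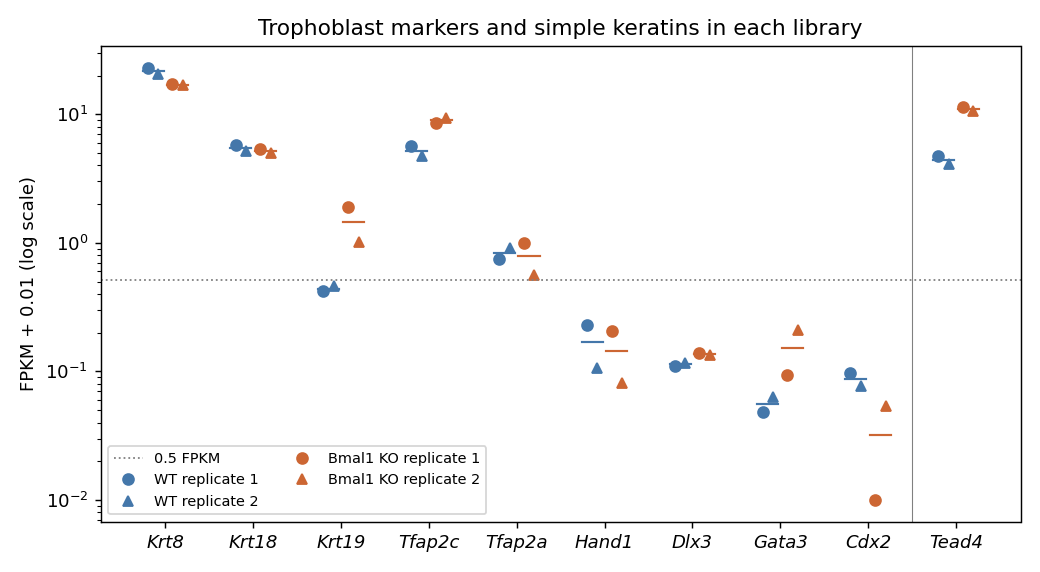
FPKM of the 9 members with a row, and of *Tead4* at the right, in each library, on a log axis after adding 0.01. Circles are replicate 1 and triangles replicate 2, blue is WT and orange *Bmal1* KO, horizontal bars are group means and the dotted line marks 0.5 FPKM. *Krt19*, *Tfap2c* and *Tead4* have both KO libraries above both WT libraries, and so do *Gata3* and *Dlx3* at a low level. *Hand1*, *Dlx3*, *Gata3* and *Cdx2* lie under the line in each library.

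*Cdx2* and *Gata3*, the members that set up the trophectoderm downstream of TEAD4, were low in the measured range. *Cdx2*, the homeobox factor that is required for trophectoderm, had 0.0876 and 0.0665 FPKM in WT and was listed at 0 and 0.0443 FPKM in KO. Both KO values lay below both WT values. *Gata3*, a zinc-finger factor that acts beside CDX2, had 0.0383 and 0.0533 FPKM in WT and 0.0846 and 0.200 FPKM in KO. Here both KO values were above both WT values, at a level exceeded by most features, since 15.1% of features lay below *Gata3* in WT and 22.3% in KO. Without the FPKM minimum the log2 fold change was -0.56 for *Cdx2* (SE 0.26, adjusted p = 0.284) and 0.69 for *Gata3* (SE 0.30, adjusted p = 0.262). With 0.1 FPKM added to each value, features of 0.03 to 0.1 FPKM differed between replicates of a genotype by a median of 1.26-fold. Some of them differed by more than 2-fold. The addition shrinks folds at such levels, so this spread cannot be set beside the FPKM printed for *Cdx2* and *Gata3*. An exact 0 in an FPKM table can be a failed estimate, and the depth of the libraries is unknown, so no limit of detection is given.

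*Hand1*, a bHLH factor of trophoblast giant cells and of early mesoderm, had 0.221 and 0.0964 FPKM in WT and 0.196 and 0.0715 FPKM in KO. The libraries of the genotypes overlapped. *Dlx3*, a homeobox factor of the placental labyrinth, had 0.101 and 0.107 FPKM in WT and 0.130 and 0.124 FPKM in KO, a 1.22-fold difference of means with both KO values above. Without the minimum, the adjusted p was 0.839 for *Hand1* and 0.694 for *Dlx3*.

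Promoters of *Cdx2* and *Gata3*, which act downstream of TEAD4, and of the trophoblast stem cell factor *Elf5* are shown. The letters before their starts are given as a description. RefSeq gave 300-base windows for 6 of the 10 members, with 8 windows in all on GRCm38.p6. Each sequence below is the 250 bases before the start, 5′ to 3′ on the strand of the gene. Capitals mark the letters GGAATG (TEAD) or GCCNNNGGC (AP-2, the factors that *Tfap2a* and *Tfap2c* encode) on either strand.
Cdx2 (chr5:147307250-147307499, minus strand): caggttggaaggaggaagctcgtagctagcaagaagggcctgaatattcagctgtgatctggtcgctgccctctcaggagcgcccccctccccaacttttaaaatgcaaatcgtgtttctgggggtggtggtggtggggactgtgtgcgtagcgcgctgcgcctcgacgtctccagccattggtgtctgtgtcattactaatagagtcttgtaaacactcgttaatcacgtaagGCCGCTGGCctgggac
Gata3 (chr2:9878601-9878850, minus strand): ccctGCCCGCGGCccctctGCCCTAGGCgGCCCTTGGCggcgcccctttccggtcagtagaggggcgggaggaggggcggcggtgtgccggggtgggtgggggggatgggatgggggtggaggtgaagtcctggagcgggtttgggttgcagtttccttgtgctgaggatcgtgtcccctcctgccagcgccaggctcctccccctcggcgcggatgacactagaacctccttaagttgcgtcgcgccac
Elf5 (chr2:103411848-103412097, plus strand): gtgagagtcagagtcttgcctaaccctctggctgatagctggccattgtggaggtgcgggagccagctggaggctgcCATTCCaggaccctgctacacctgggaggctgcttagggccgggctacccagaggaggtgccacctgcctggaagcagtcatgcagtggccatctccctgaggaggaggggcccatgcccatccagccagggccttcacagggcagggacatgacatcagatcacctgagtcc
GGAATG occurred in 14.7% of the 32851 promoter windows, and among the members only in the *Elf5* window printed above, where it reads CATTCC on the strand of the gene. The other *Elf5* window, upstream of a start farther along the gene (chr2:103423818-103424067), holds none of the letters searched. GCCNNNGGC occurred in 16.6% of windows, and among the members at 3 positions of *Gata3* and 1 of *Cdx2* and of *Krt18*. The E-box CACGTG, the letters BMAL1 binds with CLOCK, occurred in 7.15% of windows and in none of the 8 windows of the members. A match is a description of letters and not a site of binding, and a window without a match says nothing about sites elsewhere.

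The AP-2 factors were the transcription factors of the set that passed the minimum. *Tfap2c* (AP-2 gamma), which acts in trophoblast stem cells and also in naive pluripotent cells and germ cell precursors, had 5.66 and 4.72 FPKM in WT and 8.54 and 9.36 FPKM in KO. The KO values did not overlap the WT values and were higher, as for 27.0% of tested features. The means were 5.19 ± 0.670 and 8.95 ± 0.580 FPKM (SD, n = 2), 1.72-fold apart, and the log2 fold change was 0.78 (SE 0.13, 95% interval 0.46 to 1.10, adjusted p = 0.0187). *Tfap2c* therefore rose by less than the 2-fold threshold. The gene (ENSMUSG00000028640.11) spans chromosome 2 from 172549593 to 172558622 (GRCm38, plus strand, 7 exons). None of the 50-base words of its transcript occurs in the annotated transcripts of another gene. The 20 nearest tested genes had a median log2 fold change of 0.03, with 1 higher and 1 lower at an adjusted p under 0.05.

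*Tfap2a* (AP-2 alpha), a factor of trophoblast, surface ectoderm and neural crest, had 0.742 and 0.907 FPKM in WT and 0.995 and 0.555 FPKM in KO. The KO replicates enclosed the WT replicates. The log2 fold change was -0.12 (SE 0.32, 95% interval -0.92 to 0.68, adjusted p = 0.835), an interval wide enough to hold changes of nearly the 2-fold size. The overlapping feature *Gm26688* had at most 0.0380 FPKM in a library.

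The simple keratins differed among themselves. *Krt8*, the type II partner, was the most abundant member, with 23.1 and 20.6 FPKM in WT and 17.1 and 16.7 FPKM in KO. Both KO values were below both WT values, as for 31.7% of tested features. The means were 21.8 ± 1.73 and 16.9 ± 0.273 FPKM (SD, n = 2), and the log2 fold change was -0.36 (SE 0.09, 95% interval -0.59 to -0.14). The adjusted p of 0.0580 from limma missed the threshold. When a library was left out it was 0.240 (WT replicate 1), 0.0457 (WT replicate 2), 0.117 (KO replicate 1) and 0.147 (KO replicate 2). Each of these fits leaves 1 library in a group, which is assumed to vary like the others. The level of *Krt8* is uncertain, because 26.9% of the 50-base words of its transcript also occur in the processed pseudogene *Krt8-ps*. *Krt18*, its type I partner, had 5.77 and 5.14 FPKM in WT and 5.33 and 5.02 FPKM in KO, so that the genotypes overlapped. Its log2 fold change was -0.07 (SE 0.12, 95% interval -0.36 to 0.22, adjusted p = 0.717).

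*Krt19*, the smallest keratin of simple epithelia and a marker of trophectoderm, had 0.411 and 0.449 FPKM in WT and 1.90 and 1.00 FPKM in KO. The WT replicates were close and the KO replicates differed by nearly as much as their lower value, yet both lay above WT. The means were 0.430 ± 0.0269 and 1.45 ± 0.633 FPKM (SD, n = 2), 3.37-fold apart, and the log2 fold change was 1.49 (SE 0.34, 95% interval 0.65 to 2.33, adjusted p = 0.0445). This call was lost without KO replicate 1 (log2 fold change 1.06, adjusted p = 0.148), with a pseudocount of 1 (0.75, adjusted p = 0.0564), with no minimum (adjusted p = 0.0885) and without a trend in the variance (adjusted p = 0.0645). After 0.1 FPKM was added to each value, features of 0.5 to 1 FPKM differed between replicates by a median of 1.22-fold, some by more than 1.93-fold. For features of 10 to 30 FPKM the median was 1.09-fold. *Krt19* lies in the type I cluster of chromosome 11 from 100140810 to 100148665 (GRCm38, minus strand, ENSMUSG00000020911.14), where the 20 nearest tested genes had a median log2 fold change of -0.04.

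*Krt8* (ENSMUSG00000049382.10, chromosome 15 from 101996698 to 102004482, minus strand, 9 exons) and *Krt18* (ENSMUSG00000023043.7, from 102028180 to 102032027, plus strand, 7 exons) are neighbours that point away from each other, with 23698 bases between their starts. Their 250 upstream bases are shown because they are the promoters of a filament pair that differed in level within the same libraries, with the AP-2 letters in capitals.
Krt8 (chr15:102004343-102004592, minus strand): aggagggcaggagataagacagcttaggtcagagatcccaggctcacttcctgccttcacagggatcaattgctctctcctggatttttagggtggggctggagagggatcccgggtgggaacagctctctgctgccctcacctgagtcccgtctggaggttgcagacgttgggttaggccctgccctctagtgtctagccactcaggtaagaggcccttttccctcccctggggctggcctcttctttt
Krt18 (chr15:102027966-102028215, plus strand): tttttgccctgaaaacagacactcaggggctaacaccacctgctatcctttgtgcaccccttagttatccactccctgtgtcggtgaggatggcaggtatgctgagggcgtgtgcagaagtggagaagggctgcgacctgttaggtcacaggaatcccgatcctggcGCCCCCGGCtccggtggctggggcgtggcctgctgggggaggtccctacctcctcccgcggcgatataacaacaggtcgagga
Neither window holds the TEAD or E-box letters. The 20 tested genes around the pair had a median log2 fold change of -0.06. The ratio of *Krt18* to *Krt8* FPKM was 0.250 and 0.249 in WT and 0.311 and 0.300 in KO. This ratio does not depend on the scaling of a library, but it carries the uncertainty of the *Krt8* level. It was closer between the WT replicates than either was to a KO library.

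In WT the order of levels was *Krt8*, *Krt18*, *Tfap2c*, *Tead4*, *Tfap2a*, *Krt19*, *Hand1*, *Dlx3*, *Cdx2* and *Gata3*. There *Krt18* overlapped *Tfap2c*, *Tfap2c* overlapped *Tead4*, and *Hand1* overlapped *Dlx3*. In KO *Tead4* and *Tfap2c* stood above *Krt18* and *Krt19* above *Tfap2a*, and *Gata3* overlapped *Hand1*, which overlapped *Dlx3*. The percentage of features with a lower level than *Tfap2c* was 59.5% in WT and 66.8% in KO, and for *Krt19* it was 32.6% and 44.7%.

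**Figure D2:**
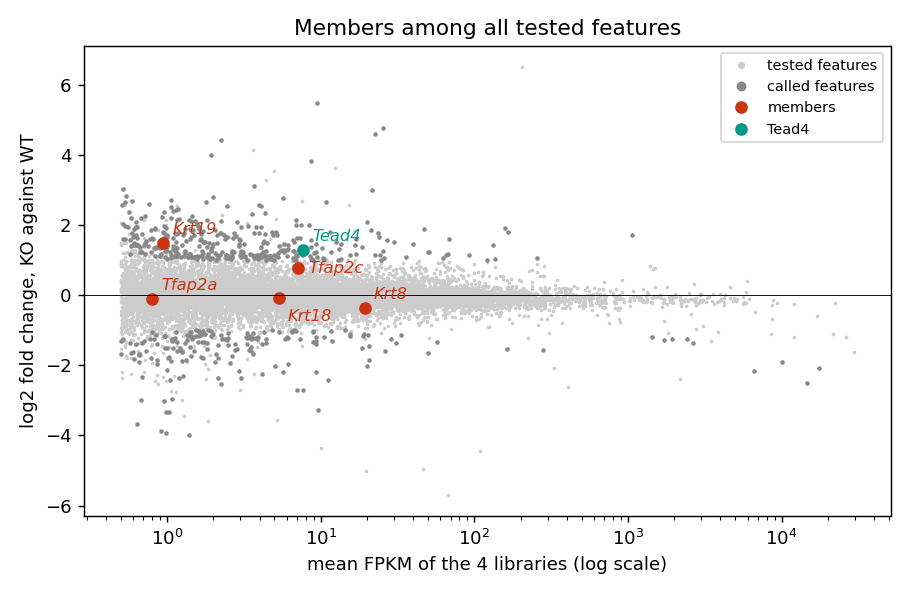
Log2 fold change of *Bmal1* KO against WT (vertical axis) plotted against mean FPKM (log axis) for the 12990 tested features, with called features in dark grey, the 5 tested members in red and *Tead4* in green. *Krt19* at 1.49 and *Tead4* at 1.29 lie among the called features, and *Tfap2c* at 0.78 lies short of a 2-fold change. *Krt8* lies at -0.36 and was not called, and *Krt18* and *Tfap2a* lie near 0.

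The other keratins set these levels in context. Of 26 further keratin genes with a row, 4 passed the minimum and 22 did not. The type I keratin *Krt42* had 22.7 and 24.6 FPKM in WT and 30.7 and 32.1 FPKM in KO. It rose by 0.41 on the log2 scale (SE 0.08, adjusted p = 0.0329), a result lost without WT replicate 1 (0.102), without KO replicate 1 (0.0587) and without KO replicate 2 (0.0992). *Krt17*, named here after its values were seen, had 27.0 and 29.4 FPKM in WT and 34.8 and 31.6 FPKM in KO (adjusted p = 0.158). *Krt17* was thus more abundant than *Krt8* in each library and *Krt42* in each except WT replicate 1. Of the 50-base words of *Krt17*, 3.99% occur in transcripts of other genes. *Krt7*, a type II keratin of trophoblast named after its values were seen, had at most 0.113 FPKM. Type I keratins (the chromosome 11 cluster and *Krt18*, 16 genes) summed to 59.7 and 63.4 FPKM in WT and 76.8 and 73.5 FPKM in KO. Type II keratins (13 genes on chromosome 15, with *Krt8* as 97.5% to 98.2% of their sum) gave 23.5 and 21.0 FPKM in WT and 17.6 and 17.0 FPKM in KO. The ratio of type I to type II was therefore 2.54 and 3.02 in WT and 4.37 and 4.31 in KO. Without *Krt17* and *Krt42* it was 0.423 and 0.448 in WT and 0.644 and 0.580 in KO. These sums were formed after the values were seen and are given without a test, and they carry the uncertainty of *Krt8*.

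**Figure D3:**
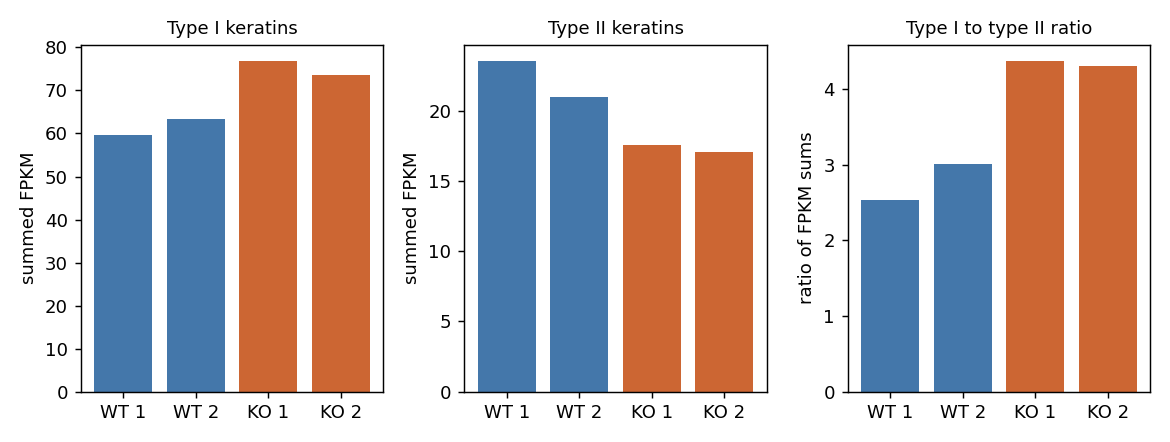
Summed FPKM of type I keratins (left) and type II keratins (middle) and their ratio (right) in each of the 4 libraries, WT in blue and *Bmal1* KO in orange, with 1 bar per library. The KO libraries are higher for type I (76.8 and 73.5 against 59.7 and 63.4), lower for type II and higher for the ratio.

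Filaments of KRT8 and KRT18 anchor at desmosomes through plakins. Of 15 desmosome and plakin genes, 11 were tested. None of these rose, 3 fell and 8 did not pass, where 6.85% of all tested features rose and 5.60% fell. The median of the 11 was -0.31 on the log2 scale, against -0.02 over all tested features. *Pkp2*, the plakophilin of simple epithelia, had 26.3 and 26.2 FPKM in WT and 11.6 FPKM in each KO library, and fell by 1.17 on the log2 scale (SE 0.08, adjusted p = 0.00226). The desmosomal cadherin *Dsg2* had 18.5 and 19.3 FPKM in WT and fell to 10.1 and 9.97 FPKM in KO (log2 fold change -0.90, adjusted p = 0.00493). Periplakin, *Ppl*, fell from a mean of 0.867 to 0.275 FPKM (log2 fold change -1.37, adjusted p = 0.0348), but not past the threshold without KO replicate 1 (0.0696) or WT replicate 2 (0.0504). It passed the minimum only through the WT libraries and so had to differ. Desmoplakin, *Dsp*, which was chosen after its values were seen, had 1.58 and 1.46 FPKM in WT and 1.28 and 1.35 FPKM in KO (adjusted p = 0.528). Of 11 tested genes of other intermediate filaments, 2 rose and 1 fell. These were *Des* (1.31 to 3.22 FPKM, adjusted p = 0.0145), *Vim* (42.9 to 58.4 FPKM, adjusted p = 0.0330) and *Nefh* (9.25 to 6.23 FPKM, adjusted p = 0.0322). The p of *Vim* was 0.0506 to 0.0847 without WT replicate 1 or either KO replicate, and that of *Nefh* was 0.0820 without KO replicate 1 and 0.0593 without WT replicate 1.

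Regulators of trophoblast outside the set were read beside the members. The list of 14 includes *Tead4* itself and was written with the values of *Tead4*, *Eomes* and *Gata2* known. Its counts and median are therefore a description of the list. All 14 were tested, 7 rose, 1 fell and 6 did not pass, and the median log2 fold change was 0.86. Over all tested features 6.85% rose and 5.60% fell. *Fgfr2*, the receptor through which FGF4 maintains trophoblast stem cells, had 0.184 and 0.172 FPKM in WT and 1.07 and 1.08 FPKM in KO (log2 fold change 2.08, SE 0.29, adjusted p = 0.0119). The homeobox genes *Rhox9* (0.554 to 2.26 FPKM, adjusted p = 0.0140) and *Rhox6* (0.434 to 1.48 FPKM, adjusted p = 0.0317, but 0.0700 with no minimum) of chromosome X, which are expressed in placenta and germ cells, rose as well. *Fgfr2* and *Rhox6* passed the minimum only through the KO libraries. *Id2*, an inhibitor of bHLH factors that marks early trophectoderm, rose from 7.15 ± 0.644 to 19.8 ± 2.35 FPKM (SD, n = 2; log2 fold change 1.45, adjusted p = 0.00410). *Eomes*, the T-box factor of trophoblast stem cells and of mesendoderm, went the other way, from 2.21 and 2.25 FPKM in WT to 0.463 and 0.775 FPKM in KO (log2 fold change -1.73, SE 0.27, adjusted p = 0.0154). The ligand *Bmp4*, named after its values were seen, rose 1.71-fold (adjusted p = 0.0136). *Gata2*, a partner of GATA3 in trophoblast, had 0.718 and 0.513 FPKM in WT and 2.01 and 1.28 FPKM in KO (adjusted p = 0.0475 from limma). This result was lost with no minimum (adjusted p = 0.0960) and without a trend in the variance (adjusted p = 0.0665). Its log2 fold change was 1.27 with all libraries and 0.96 without KO replicate 1.

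**Figure D4:**
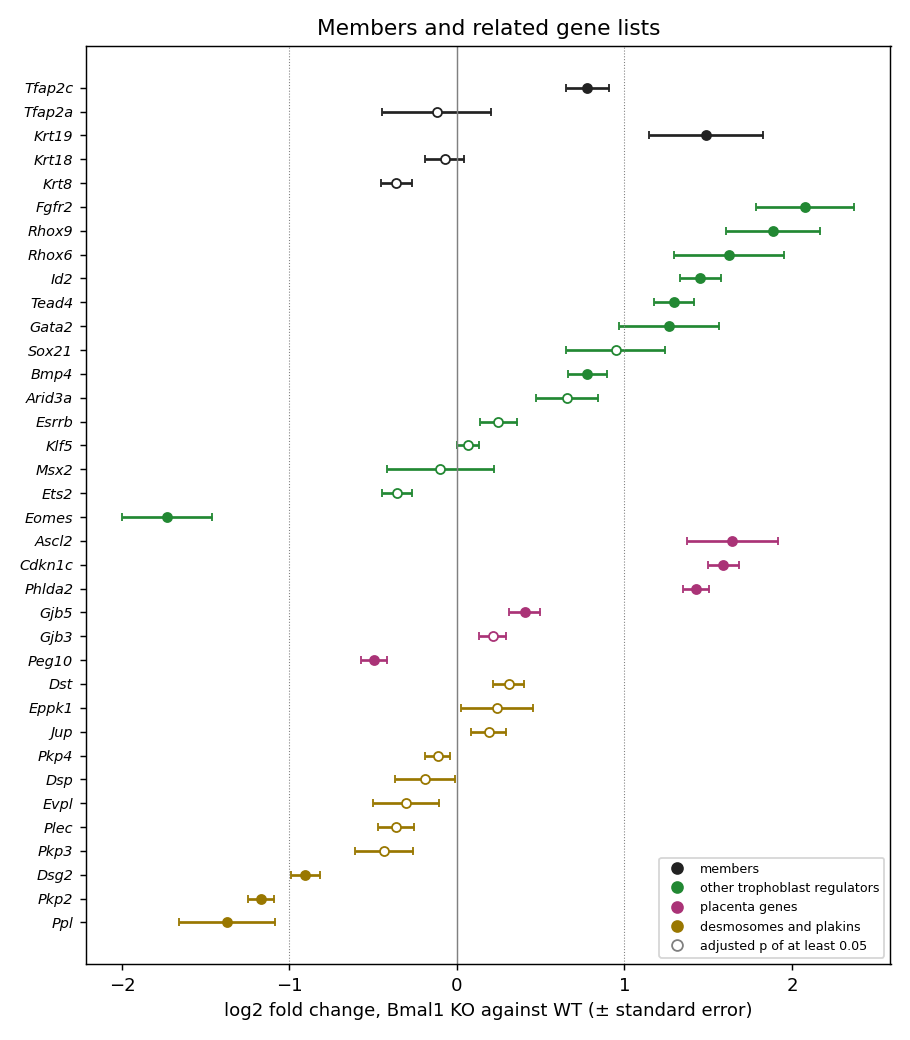
Log2 fold change of *Bmal1* KO against WT with its standard error for the 5 tested members (black), the 14 other trophoblast regulators (green), 6 tested placenta genes (purple) and 11 tested desmosome and plakin genes (brown). Filled points have an adjusted p under 0.05, and dotted lines mark a 2-fold change. *Fgfr2* at 2.08 is highest and *Eomes* at -1.73 lowest.

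Of 22 genes of differentiated trophoblast and placenta, 10 had no row (among them the lactogen *Prl3d1* and the spongiotrophoblast marker *Tpbpa*), 6 were under the minimum and 6 were tested, of which 4 rose and 1 fell, beside 6.85% and 5.60% over all tested features. *Gcm1*, the factor of syncytiotrophoblast, had at most 0.172 FPKM and the placental gene *Plac1* at most 0.113 FPKM in a library; both were named after their values were seen. Those that rose included *Phlda2*, a brake on placental growth, from 72.1 ± 4.05 to 194 ± 6.01 FPKM (SD, n = 2; log2 fold change 1.43, adjusted p = 0.00169). The cell cycle inhibitor *Cdkn1c* rose from 8.44 to 25.6 FPKM (adjusted p = 0.00169) and *Ascl2*, a bHLH factor of spongiotrophoblast, from 0.424 to 1.57 FPKM (adjusted p = 0.0187, but 0.0510 without KO replicate 2). *Ascl2* passed the minimum only through the KO libraries and so had to differ. These 3 genes lie in the same imprinted region of chromosome 7. Of the 20 tested neighbours of *Phlda2*, 8 were higher at an adjusted p under 0.05 and 0 lower, with a median log2 fold change of 0.36. *Cdkn1c* and *Ascl2* were not left out of these neighbours, so the count is not independent of their rises. The part of the region in each gene's value was not tested. The gap junction gene *Gjb5* rose from 10.1 to 13.4 FPKM (adjusted p = 0.0443, but 0.0579 to 0.160 when any 1 library was left out), and the imprinted *Peg10* fell from 31.9 to 22.6 FPKM (adjusted p = 0.0164).

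Among paralogs of the member factors, 7 of 21 were tested, with 1 that rose (*Gata2*) and 1 that fell. The latter was *Elf3*, an epithelial ETS factor related to *Elf5*, with 20.2 and 19.8 FPKM in WT and 13.5 and 12.9 FPKM in KO (log2 fold change -0.59, adjusted p = 0.0119). *Cdx1*, named after its values were seen, had 1.86 to 2.25 FPKM over the 4 libraries and thus more than *Cdx2* in each. Of 19 tested TEAD cofactors, Hippo genes and their targets, 6 rose and none fell, beside 6.85% and 5.60% over all tested features. No change passed 2-fold on the log2(FPKM + 0.1) scale. The median log2 fold change of the 19 was -0.07, against -0.02 over all tested features. The cofactor *Yap1*, named after its values were seen, did not pass (log2 fold change -0.13, adjusted p = 0.327 from limma). The YAP and TEAD targets *Ctgf* (6.46 to 13.0 FPKM, adjusted p = 0.00558) and *Cyr61* (4.94 to 9.57 FPKM, adjusted p = 0.0151) rose. So did *Mob1a* (log2 fold change 0.99, adjusted p = 0.00410) and *Nf2* (49.7 to 78.8 FPKM, adjusted p = 0.00937), components of the Hippo pathway that restrain YAP, and the cofactor *Wwtr1*, which encodes TAZ (5.65 to 8.44 FPKM, adjusted p = 0.0224, but 0.0657 without KO replicate 2). *Ankrd1*, a further target named after its values were seen, had 0.131 and 0.0773 FPKM in WT and a listed value of 0 in each KO library, and it was under the minimum. Of 14 genes that keep trophoblast genes silent in ESCs, none rose and 2 fell, beside 6.85% and 5.60% over all tested features, and nothing is read from so small a count. Those that fell were the DNA methyltransferase *Dnmt3b* (61.7 to 36.0 FPKM, adjusted p = 0.00522) and *Trim28* (932 to 721 FPKM, adjusted p = 0.0306, but 0.0708 to 0.0952 when any 1 library was left out). *Pou5f1* had 1620 and 1457 FPKM in WT and 1589 and 1389 FPKM in KO (adjusted p = 0.799).

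Several members are also made by other cell types, whose markers were read in the same libraries. The 8 pluripotency markers summed to 6308 to 6431 FPKM in WT and 5886 to 6245 FPKM in KO, and *Dppa5a* and *Pou5f1* held most of these sums. Both KO libraries lay below both WT libraries for 5 markers and above them for 1, beside 31.7% and 27.0% of tested features. Against -0.02 over all tested features, the median log2 fold change was -0.20 for the 8 markers. Of these, *Klf4* (log2 fold change -0.46, adjusted p = 0.0177, but 0.0582 with no trend in the variance) and *Tdgf1* (-0.36, adjusted p = 0.0322) fell, *Tdgf1* with an adjusted p of 0.0822 to 0.129 without WT replicate 2 or either KO replicate. The 8 primitive endoderm markers summed to 1.23 and 1.29 FPKM in WT and 2.06 and 1.96 FPKM in KO, and the 8 mesoderm markers to 1.10 and 0.745 FPKM in WT and 1.57 and 1.56 FPKM in KO. Only 1 gene of these lists was tested, and it did not pass. Of 8 markers of surface ectoderm and neural crest, where *Tfap2a*, *Gata3* and *Dlx3* also act, 6 had a row, and *Foxd3* and *Grhl3*, which ESCs express, held nearly all of a sum of 60.8 to 71.8 FPKM. *Krt5* had at most 0.0198 FPKM and *Trp63* at most 0.00933 FPKM, and both were listed at 0 in KO. Of 8 fibroblast markers 5 had a row, summing to 1.93 and 1.67 FPKM in WT and 2.93 and 2.26 FPKM in KO, with *Thy1* as the 1 tested gene (adjusted p = 0.120). The part of other cells in *Krt19* and *Tfap2c* was not tested.

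Facts of the libraries touch the values above. *Arntl*, the targeted gene, had 6.05 and 6.29 FPKM in WT and 5.95 and 5.92 FPKM in KO (adjusted p = 0.750), so its RNA level does not check the labels. Features without a symbol took 26.8% and 37.3% of the summed FPKM in WT and 19.0% and 18.1% in KO. When FPKM were scaled to equal sums over features with a symbol, the log2 fold change was 0.85 for *Tfap2c*, 1.55 for *Krt19* and -0.29 for *Krt8*. *Ddx3y* of chromosome Y, looked at after its values were known, had 0.235 and 0.403 FPKM in WT and 16.4 and 20.6 FPKM in KO, a difference between the cultures that moves with the genotype. Its part in the results was not tested.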

How the data were processed

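Ribosomal RNA was removed from Trizol-extracted RNA. The authors aligned reads to GRCm38 with TopHat2 2.1.1 and Bowtie2 2.3.0 and deposited the FPKM of each feature from Cufflinks 2.2.1, 1 table per library. FPKM are scaled to all mapped fragments, so a few abundant features shift every other value, and no depth or read number is known. Which annotation was used is not given in the sources used here.

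Symbols merged by commas were split, and the feature with the highest mean was taken for a symbol. Features with a mean of at least 0.5 FPKM were compared as log2(FPKM + 0.1) with limma 3.58.1 in R 4.3.3 (trended variance, Benjamini-Hochberg adjustment over all tested features). Fold changes are on this log2 scale and understate those of low features. Summaries and plots used Python 3.11.15, pandas 2.3.3 and matplotlib 3.10.9. The fit was tested on simulated data. Starts were raised by 1 to count from 1, and gene positions are from GENCODE M21 on GRCm38.

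Replicates were grouped by title. The members and gene lists were chosen with earlier results of these data known. Named genes are the members, *Tead4*, *Arntl* and up to 5 genes per list with an adjusted p under 0.05, by size of change. Others are marked, or were named for their values in marker lists. Promoter sequences are from RefSeq. Alternatives were other pseudocounts (1 and 0.01), minima and scalings, a replicate block, no variance trend, summed symbols and leaving out each library, where the lone library of a group is assumed to vary like the others.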

Additional observations from a re-analysis of the deposited data

How the results depend on the processing

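*Tead4* (log2 fold change 1.14 to 1.40) and *Tfap2c* (0.65 to 0.91) kept their direction and an adjusted p under 0.05 from limma in all 14 alternatives. For *Krt19* the change was 0.75 with a pseudocount of 1 and 1.49 with no filter or no trend, each short of the threshold, and 1.06 to 1.92 when a library was left out; with a mean of at least 1 FPKM it was not tested. *Krt8* ran from -0.44 to -0.28, *Krt18* from -0.16 to 0.0093 and *Tfap2a* from -0.49 to 0.25 when a library was left out, so that the sign of *Krt18* turned at 0.0093 (without WT replicate 1) and that of *Tfap2a* at 0.0078 (without WT replicate 2) and 0.25 (without KO replicate 2). The number of members called was 0, and that with an adjusted p under 0.05 was 1, with a pseudocount of 1, no filter, a mean of at least 1 FPKM or no trend; leaving out a library gave 0 to 1 and 1 to 3. Over all features a pseudocount of 1 left 146 higher and 85 lower calls in place of 353 and 185, and leaving out a library gave 316 to 484 and 251 to 331. The cause was not tested, except that fewer features enter with a higher minimum.

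With the replicate number as a block, *Krt8* reached an adjusted p of 0.0122 at the same log2 fold change of -0.36 (0.0539 to 0.114 in the other alternatives with all libraries), and 21 genes of the lists were lower in place of 11 and 29 higher in place of 20; leaving out a library gave 15 to 18 higher and 7 to 9 lower genes of the lists. The difference between replicates 1 and 2 correlated weakly between genotypes (Pearson's r 0.071, Spearman's rho 0.387 across features, which are not independent), and no source says that equal numbers were processed together.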
